A study of Mus musculus with 32 samples.

Results

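The imprinted genes of the mouse were followed across 2 brain regions of wild-type mice and of mice carrying a deletion in the gene of 1 or both of a pair of histone methylation regulators. A list of 42 imprinted genes was used. It was chosen by known parent-of-origin expression after *Ndn* had been selected on its hippocampal difference between 2 of the mutants, and 41 of them were found among the 53715 genes of the RNA-seq tables. *Hymai* had no matching entry and was not analysed here. Of the 42 genes, 24 are expressed from the paternal copy, 14 from the maternal copy and 4 (*Ube3a*, *Grb10*, *Gnas* and *Inpp5f*) from a copy that varies with cell type or transcript. They fall into 18 imprinted clusters.

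Genomic imprinting restricts the expression of a gene to the copy inherited from 1 parent. DNA methylation laid down in the egg or the sperm marks a control region in each cluster, and protein-coding genes and noncoding RNAs around it are then read from the marked or the unmarked chromosome. Many imprinted genes act in growth, feeding and maternal behaviour and are strongly expressed in the hypothalamus and other deep brain nuclei. Loss of the paternal copy of the cluster around *Ndn*, *Magel2* and *Snrpn* causes Prader-Willi syndrome in humans, and loss of the maternal copy of *UBE3A* in the same cluster causes Angelman syndrome.

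The libraries came from adult male F1 hybrids of 129S1/SvImJ fathers carrying a *Kmt2a* deletion in 1 copy and C57BL/6J mothers carrying a *Kdm5c* deletion in 1 copy. KMT2A adds methyl groups to a lysine of histone H3, and KDM5C removes them. The 4 genotypes compared were wild type (WT), *Kmt2a* heterozygotes (2a-HET), mice hemizygous for the *Kdm5c* deletion (5c-KO) and double mutants with both lesions (DM). Both deletions were present in the germ line and so in every cell. From each of 4 mice per genotype the amygdala and the hippocampus were dissected, which gave 32 libraries. In all of the mice the paternal chromosomes were of 129 origin and the maternal autosomes of C57BL/6J origin, but the gene counts summed both copies, so that loss or gain of imprinting could not be seen. In this bulk tissue, fewer cells of a type and less RNA per cell cannot be told apart.

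The promoter DNA of 6 members is shown first, in 5 stretches, because CG dinucleotides are the sites that carry DNA methylation and because *Ndn*, *Magel2*, *Peg3* and *Usp29* carry the main results below. The stretches are RefSeq sequence of build GRCm38.p6, written 5′ to 3′ on the gene's own strand, and the *Peg3*-*Usp29* stretch is the whole interval between both starts, read on the *Peg3* strand. The *Ndn* stretch precedes the RefSeq start and lies inside the exon of the longer GENCODE model. Capitals mark CG dinucleotides in the first 3 sequences. In *Nap1l5* and *Mest*, a nucleosome assembly protein and a hydrolase gene, capitals mark the 6 letters TGCCGC or their reverse complement GCGGCA, the motif that ZFP57 binds when it protects methylated imprints.
Ndn, chr7:62348247-62348276 (+): cccaacaCGcatgCGcaatatCGcatcagc
Magel2, chr7:62376729-62376978 (+): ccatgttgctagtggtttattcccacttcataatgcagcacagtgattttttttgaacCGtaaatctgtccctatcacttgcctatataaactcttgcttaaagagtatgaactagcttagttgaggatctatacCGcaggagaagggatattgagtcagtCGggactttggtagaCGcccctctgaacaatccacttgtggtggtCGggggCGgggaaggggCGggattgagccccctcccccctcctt
Peg3-Usp29, chr7:6730432-6730577 (-): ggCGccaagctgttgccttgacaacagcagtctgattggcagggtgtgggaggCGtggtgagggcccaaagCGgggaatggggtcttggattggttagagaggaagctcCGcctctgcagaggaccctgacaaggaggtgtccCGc
Nap1l5, chr6:58907127-58907261 (-): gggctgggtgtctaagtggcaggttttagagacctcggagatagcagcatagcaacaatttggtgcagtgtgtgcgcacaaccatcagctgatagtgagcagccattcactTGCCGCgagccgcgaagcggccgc
Mest, chr6:30737800-30738049 (+): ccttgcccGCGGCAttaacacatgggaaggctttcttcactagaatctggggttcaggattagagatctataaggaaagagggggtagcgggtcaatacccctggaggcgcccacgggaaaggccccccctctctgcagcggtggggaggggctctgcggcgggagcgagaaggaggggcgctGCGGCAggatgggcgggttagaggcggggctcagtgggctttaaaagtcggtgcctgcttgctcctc

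The *Ndn* stretch of 30 bases holds 3 CG dinucleotides, the *Magel2* stretch of 250 bases 7 and the interval of 146 bases between *Peg3* and *Usp29* 5. RefSeq promoter windows, from 250 bases before to 50 bases after a start, were matched to 33 members, which had 50 such windows. The members' windows held a median of 15 CG dinucleotides, against 7 over all 32851 windows. The 6-letter motif, searched on both strands, was present in 14 of the 50 windows (28%) and in 11.6% of all windows. Counted by gene, it was found in 13 of the 33 members (39.4%) and in 13.1% of all symbols. The motif itself holds a CG, so its share is not independent of the higher CG count of the members' windows. *Snrpn* and *Snurf* share 1 window that holds it, and the 2 *Mest* windows that hold it overlap almost in full. Neither the *Ndn* nor the *Magel2* stretch shown above held it, while *Nap1l5* had 1 match and *Mest* 2. These are counts of letters in fixed windows and were not tested.

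Library depth ranged from 19215489 to 27798976 gene counts, and 3 counts, the level below which a gene was taken as at the floor, corresponded to 2.5 to 3.82 normalised counts. The deleted genes were checked first. *Kdm5c* was measured at 1296 ± 93.1 normalised counts in 5c-KO hippocampus against 1640 ± 222 in WT (SD, n = 4 each), a log2 fold change of -0.34 (DESeq2 adjusted p = 0.0299), and its change in the amygdala was -0.32 (DESeq2 adjusted p = 0.467). In DM its changes were -0.34 and -0.21 in these regions (amygdala first, DESeq2 adjusted p = 0.325 and 0.487). *Kmt2a* differed between 2a-HET and WT by 0.013 and 0.21 on the log2 scale, in the same order of regions (DESeq2 adjusted p = 0.998 and 0.996). The gene counts include reads from the exons that were kept, so they test the labels only in part. Markers of hippocampal principal neurons, 8 genes, summed to 13648 to 36487 normalised counts in hippocampal libraries and to 4307 to 6496 in amygdala libraries. The 8 markers of amygdala neurons summed to 8160 to 16816 in the amygdala, with a hippocampal range of 4625 to 9836 that met it. Of these 8, 6 were lower in the hippocampus in WT, 4 in 2a-HET, 3 in 5c-KO and 4 in DM (DESeq2 adjusted p under 0.1). In each genotype 2 of them were higher in the hippocampus, so this list separates the regions only in part.

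Some libraries stood apart in markers of neighbouring tissue. The 15 hypothalamic neuron markers, all detected in the amygdala, summed to 2447 to 9577 normalised counts there. In the hippocampus they summed to 48.9 to 147 in 14 libraries but to 687 in 5c-KO replicate 1 and 787 in 5c-KO replicate 4. Of the sum in replicate 4, *Pomc*, a peptide hormone precursor gene, alone made up 750.5, and the other 14 markers summed to 36.1, within the range of 18.6 to 115 of the libraries other than replicate 1. In replicate 1 the other 14 summed to 602. Single markers were absent from whole groups, with *Rax* at 0 in all WT libraries, *Ghrh* and *Kiss1* in 2a-HET and *Agrp* and *Ghrh* in DM. The 12 choroid plexus markers summed to 1153 to 1935 in the amygdala except for 43377 in DM replicate 1 and 8533 in DM replicate 3, and ranged from 1043 to 110489 in the hippocampus, with 5c-KO replicate 1 highest. That library was also highest in the striatal sum (17280, others 2668 to 4374) and the leptomeningeal sum (5249, others 933 to 2358). WT replicate 1 of the amygdala had the highest sum of amygdala neuron markers.

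Per kilobase of transcript, *Gnas*, which encodes the stimulatory G protein alpha subunit, was the most abundant member in both regions. Its amygdala level was 17731 normalised counts per kb and its hippocampal level 15722 (means of 16 libraries each), and in the amygdala its libraries did not overlap with those of the next member. *Snrpn*, a spliceosomal protein gene, followed at 8944 and 9911 per kb, and after it in the amygdala order came *Nnat*, a small membrane proteolipid gene, at 6949 and 4021 per kb and the noncoding RNA *Meg3* at 6440 and 5475 per kb. In the hippocampus the level of *Meg3* was above that of *Nnat*. *Snrpn* and *Nnat*, the neighbours in the amygdala order, overlapped in their libraries. *Ndn*, which encodes a MAGE family protein that restrains the cell cycle in neurons, ranked 7 in the amygdala, at 2819 per kb, and 8 in the hippocampus, at 1176 per kb. Its amygdala libraries overlapped with those of its neighbours in the order. *Magel2*, another MAGE family gene that controls ubiquitination on endosomes, had an amygdala level of 129 per kb (rank 27) and a hippocampal level of 8.39 per kb (rank 35).

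At the other end, *Phlda2*, a pleckstrin homology domain gene known from placenta, was at or under the floor in 15 of 16 libraries of the amygdala and in all 16 of the hippocampus. *Snurf*, a short reading frame on the *Snrpn* transcript, was there in 10 and 13 libraries, and *H19*, a noncoding RNA, in 9 and 8. Reads of *Snurf* and *Snrpn* come from shared transcripts and could be split between them by the counting. The same uncertainty holds for *Nnat*, which lies inside *Blcap*, for *Zrsr1* inside *Commd1*, for *Peg13* inside *Trappc9*, for *Airn* across *Igf2r* and for the touching ends of *Mest* and *Copg2*.

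The first comparison asked how members differed between the regions. Within each genotype the hippocampus was compared with the amygdala, and a gene was called at an adjusted p under 0.1. In WT mice 18 of 40 tested members were lower in the hippocampus (DESeq2), where 11.3% of all tested genes were called lower. In 2a-HET 20 of 40 were lower (14.8% of all genes), in 5c-KO 18 of 40 (12% of all genes) and in DM 21 of 40 (13.8% of all genes). With all libraries no member was called higher in any genotype by DESeq2, where 9.9%, 14.8%, 12% and 13.3% of all genes were; at an unadjusted p under 0.05, 2 members were higher in 5c-KO and none in the other genotypes. The median log2 difference of the members was -0.47 in WT, -0.39 in 2a-HET, -0.28 in 5c-KO and -0.40 in DM, beside medians of all genes between -0.01 and 0.0031. The normalised counts of the 4 hippocampal libraries lay below those of all 4 amygdala libraries for 16, 20, 18 and 19 members in the same order of genotypes, beside 8.24%, 14.1%, 9.78% and 12.7% of all genes. The libraries of both regions came from the same mice, and with the mouse as a block 18, 23, 20 and 21 members were called, 1 of the 23 (*Kcnq1ot1*, named after its value was seen) as higher. Of all genes 11.9%, 16.8%, 13.3% and 15.5% were lower in that fit, and 16.4% were higher in 2a-HET. Markers of neighbouring tissue moved with the region. Of the 15 hypothalamic markers 13, 14, 13 and 11 were lower in the hippocampus and of the 10 striatal markers all 10 in each genotype (DESeq2), with median log2 differences of -5.69 and -3.62 in WT. Leptomeningeal markers were lower for 7, 9, 2 and 8 of 12 and higher for 0, 1, 2 and 1, and thalamic markers were lower for 4, 6, 3 and 4 of 8. Choroid plexus markers were higher for 3, 1, 10 and 0 of 12 and lower for 0, 2, 0 and 0. Their part in the members' differences was not tested.

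These counts depended on the scaling. With size factors from the ERCC spike-in RNA, the median of all genes moved to 0.74, 0.51, 0.90 and 0.41 (log2, hippocampus against amygdala, same order), and 5, 7, 5 and 6 members were called lower, beside 1.22%, 1.63%, 1.38% and 1.72% of all genes. In 5c-KO, 7 of 37 tested members were then called higher, namely *Cdkn1c*, *Commd1*, *Copg2*, *Dio3*, *Igf2*, *Igf2r* and *Snrpn*, beside 32.8% of all genes. Relative to the median of all genes the members' median was -0.40, -0.45, -0.27 and -0.39 with the spike-in factors, and -0.46, -0.40, -0.28 and -0.40 without them. Each of the 18, 20, 18 and 21 members called lower stayed below the median of all genes under this scaling, though 4, 4, 5 and 5 of them then had log2 differences above 0. New size factors shift the log2 difference of every gene by nearly the same amount. Positions relative to the median of all genes were therefore nearly fixed and do not test the scaling. *Asb4*, *Dlk1*, *Magel2*, *Peg10* and *Zim1* were called lower in all 4 genotypes under both scalings.

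**Figure D1:**
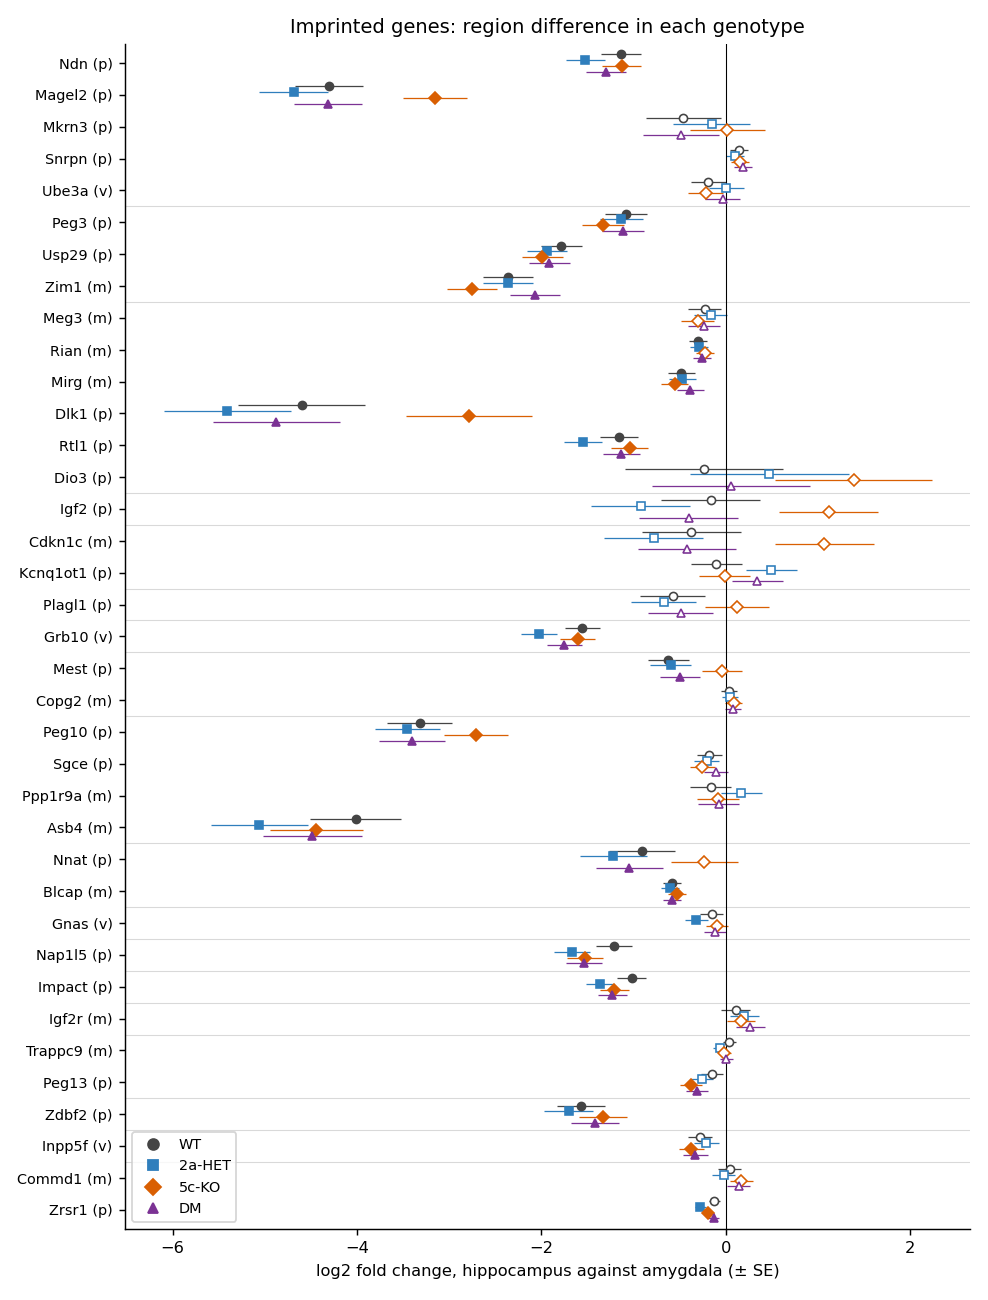
Log2 fold change of hippocampus against amygdala (horizontal axis, point and SE, n = 4 libraries per region) for 37 of the 41 members, with a colour for each genotype and filled points for members called at an adjusted p under 0.1. Letters after a name give the expressed copy (paternal, maternal or varying), grey lines separate clusters, and *Snurf*, *Phlda2*, *H19* and *Airn*, of low counts, are left out. *Magel2*, *Dlk1*, *Asb4* and *Peg10* lie farthest to the left, and *Snrpn*, *Ube3a* and *Sgce* lie near 0.

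In all, 15 members were lower in the hippocampus in each of the 4 genotypes, beside 7.22% of all genes tested in all 4, and 7 in 1 to 3 of them, beside 13.8%. The remaining 18 tested members were called in none, as were 58.7% of all genes. *Magel2* showed the smallest adjusted p. The WT amygdala libraries had 244, 873, 430 and 441 normalised counts and the WT hippocampal libraries 32.7, 21.9, 18.9 and 27.1, which was 19.8-fold lower (log2 fold change -4.31, SE 0.37, DESeq2 adjusted p = 4.64e-28). The regions did not overlap. The difference was -4.69 in 2a-HET, -3.15 in 5c-KO and -4.31 in DM on the log2 scale. *Peg10*, which derives from the gag and pol genes of a retrotransposon, was 9.97-fold lower in WT hippocampus (log2 fold change -3.32, DESeq2 adjusted p = 2.17e-18), with counts of 601, 2705, 1785 and 2738 in amygdala libraries and of 123, 240, 132 and 289 in hippocampal ones. *Sgce*, the epsilon-sarcoglycan gene that starts beside *Peg10* on the other strand and is read from the same paternal copy, had 449 ± 49.7 counts in WT amygdala and 396 ± 36.5 in WT hippocampus (SD, n = 4), a log2 fold change of -0.18 that was not called.

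The remaining 4 of the 6 members with the smallest adjusted p in WT were *Zim1*, *Grb10*, *Asb4* and *Usp29*. *Zim1*, a maternally expressed zinc finger gene, fell from 361 ± 122 counts in the amygdala to 70.3 ± 7.61 (SD, n = 4 each, 5.13-fold, DESeq2 adjusted p = 1.11e-15). *Grb10*, an adaptor that restrains insulin receptor signalling, fell from 1566 ± 558 to 532 ± 79.2 (2.94-fold, DESeq2 adjusted p = 4.19e-14), and *Usp29*, a deubiquitinase family gene, from 2029 ± 797 to 589 ± 171 (3.44-fold, DESeq2 adjusted p = 1.00e-13). *Asb4*, a subunit of ubiquitin ligases, fell from 118 ± 64.6 to 7.2 ± 3.81 (DESeq2 adjusted p = 5.09e-14), and 5 of the 16 hippocampal libraries of all genotypes were at or under the floor. In each of these 4 genes WT replicate 1 was the lowest WT library of the amygdala. Without that mouse 20 members were called lower in WT, 17 of them among the 18 called with it, beside 10.8% of all genes called lower.

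Of the clusters with more than 1 tested member, the Peg3 cluster was the one in which each member was called lower in each genotype. It holds the paternally expressed *Peg3*, a zinc finger gene of maternal behaviour, and *Usp29*, whose start lies 146 bases from that of *Peg3*, together with the maternally expressed *Zim1*. *Peg3* itself was 2.12-fold lower in WT hippocampus (log2 fold change -1.08, DESeq2 adjusted p = 3.85e-05). In the Prader-Willi/Angelman cluster *Ndn* and *Magel2* were called lower in all genotypes, and *Snrpn*, *Snurf*, *Mkrn3* and *Ube3a* in none. In the Dlk1-Dio3 cluster 4, 4, 3 and 4 of 6 members were called. *Dlk1*, a transmembrane protein of the Notch ligand family, differed by -4.60 in WT and *Rtl1*, another retrotransposon-derived gene, by -1.16, while the maternally expressed noncoding RNA *Meg3* differed by -0.23, which was not called. Of the clusters with a single tested member, *Zdbf2*, *Grb10*, *Nap1l5* and *Impact* were lower in all genotypes, with WT log2 differences of -1.57, -1.56, -1.21 and -1.02, while *Plagl1* was called in none, *Gnas* in 2a-HET and *Inpp5f* in 5c-KO and DM.

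Members of either expressed copy were among those called. Of the paternally expressed members 12 of 23 tested were lower in WT, 13 in 2a-HET, 12 in 5c-KO and 14 in DM. Of the maternally expressed members 5 of 13 were lower in WT, 5 in 2a-HET, 4 in 5c-KO and 5 in DM. The difference between these shares was not tested. Among the 18 called in no genotype were the growth genes *Igf2*, *Igf2r*, *Cdkn1c* and *Plagl1*.

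*Gnas* as a whole gene was called only in 2a-HET (log2 fold change -0.32), but its transcripts differed between regions by where they start. The locus has a maternally expressed Nesp start, a paternally expressed XL start, a paternally expressed exon 1A start and the main start of the G protein subunit, which is read from both copies in most brain cells. Transcripts from the Nesp start summed to 1070 ± 429 normalised counts across the 16 amygdala libraries (218 to 1766) and to 12.9 ± 21.9 over 16 hippocampal libraries (0 to 91.8, the highest being 5c-KO replicate 1). The XL start gave 110 ± 45.9 against 2.00 ± 4.16, and the exon 1A start gave 5534 ± 1060 against 2594 ± 437 (amygdala first). The lowest amygdala library exceeded the highest hippocampal library for the Nesp start, and the main and later starts were at 26892 ± 3704 and 27189 ± 2590. The Nesp start thus gave 3.15% of amygdala *Gnas* counts and 0.0438% of hippocampal ones. Transcript values rest on the assignment of reads among overlapping transcripts by the expected counts, and no test was made.

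**Figure D2:**
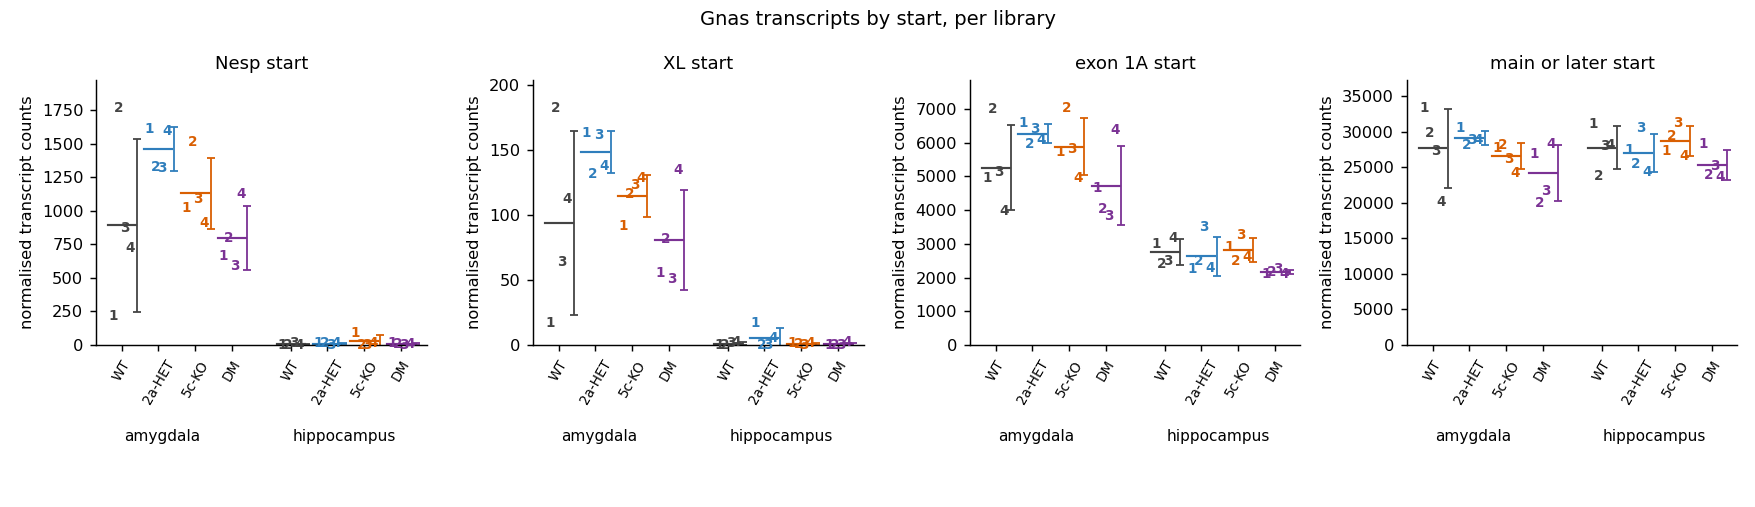
Normalised transcript counts (vertical axes, linear, from 0) of *Gnas* by start class in each library, 4 genotypes in 2 regions. Digits are replicate numbers, horizontal lines group means and bars SD (n = 4). Nesp, XL and exon 1A starts are lower in hippocampal groups, whereas the main and later starts have similar means of 26892 and 27189 in the regions.

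In *Grb10* and *Inpp5f*, whose starts also differ in the copy they are read from, the shares of the starts lay closer together. *Grb10* transcripts from upstream starts gave 1302 ± 254 in amygdala and 416 ± 134 in hippocampal libraries (SD, n = 16 each), or 71.1% and 74.7% of the gene, and those from the downstream start gave 480 ± 128 and 118 ± 66.3. *Inpp5f*, a phosphoinositide phosphatase gene, gave 1869 ± 267 and 1406 ± 207 from the start in the 3′ part of the gene, or 62.3% and 57.3% of the gene. These shares were not tested.

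*Ndn* lies on chromosome 7 at 62346569 to 62350262 of mm10 and *Magel2* at 62377010 to 62381640. Across all genotypes *Ndn* was at 10414 ± 2599 normalised counts in amygdala and 4343 ± 1106 in hippocampal libraries (SD, n = 16). In the hippocampus its normalised counts were 5028, 4350, 4518 and 5062 in WT, 3997, 3579, 5050 and 3435 in 2a-HET, 6451, 4815, 5811 and 4879 in 5c-KO and 2759, 3558, 2109 and 4084 in DM. All DM libraries lay below all WT libraries and all 5c-KO libraries, but they overlapped with 2a-HET. Of the 39 members tested, *Ndn* was the only one called between DM and WT in the hippocampus, where 0.881% of all tested genes were called, 0.171% lower and 0.71% higher. It was also the only member with an unadjusted p under 0.05 there, beside 5.33% of all genes. It was 1.52-fold lower (3128 ± 871 against 4740 ± 360, SD, n = 4, log2 fold change -0.60, SE 0.18, DESeq2 adjusted p = 0.0780).

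The comparison that drew attention to *Ndn*, DM against 5c-KO in the hippocampus, is a description only. The 5c-KO mean was 5489 ± 786 and the log2 difference of DM from it -0.81, where 0.0067% of all genes were called lower and 0% higher. The WT comparison shares the DM libraries and is therefore not independent of that choice. Against 2a-HET, with a mean of 4015 ± 730, the difference was -0.37 (DESeq2 adjusted p = 0.922). By edgeR the difference of DM from WT was -0.61 (adjusted p = 0.228). Without DM replicate 3, the lowest library, it was -0.46 (DESeq2 adjusted p = 0.285), and the call was also lost without DM replicate 1 and without WT replicate 1, 3 or 4. With spike-in scaling the difference was -1.21 (DESeq2 adjusted p = 0.952), and the median of all genes moved to -0.50.

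In the amygdala, the other region of the same mice, DM again had the lowest mean, but its libraries spread widely. *Ndn* counts were 9629, 13968, 9725 and 8323 in WT, 11947, 11110, 12136 and 11011 in 2a-HET, 11809, 11690, 13946 and 10549 in 5c-KO and 5410, 9439, 4573 and 11362 in DM. DM replicates 1 and 3 lay below all other amygdala libraries, and replicate 4 lay within the range of each of the other genotypes. The log2 difference of DM was -0.43 from WT (SE 0.23, DESeq2 adjusted p = 0.754), -0.63 from 5c-KO (DESeq2 adjusted p = 1) and -0.58 from 2a-HET (DESeq2 adjusted p = 0.406). Without DM replicate 4 the difference from 2a-HET was -0.83 (DESeq2 adjusted p = 0.0185) and that from 5c-KO -0.89 (DESeq2 adjusted p = 0.0333). The DM change did not differ detectably between regions (hippocampal minus amygdala change -0.16, DESeq2 adjusted p = 1). In DM replicates 1 and 3, low in *Ndn*, the choroid plexus sum was 43377 and 8533 and the hypothalamic sum 3112 and 3209. DM replicate 4, highest of DM in *Ndn*, had the highest hypothalamic sum of the amygdala libraries (9577), while DM replicate 2 had a hypothalamic sum of 2957 with 9439 *Ndn* counts and WT replicate 4 had 2447 with 8323. Of the sum in DM replicate 4, the markers *Oxt* and *Avp* made up 4613 and 2507. Its *Pmch* (369) and *Hcrt* (225) lay below those of 5c-KO replicate 3 (1093 and 536), so the order of libraries differed between markers. The same mice were the lowest DM libraries for *Ndn* in the hippocampus (2759 and 2109), where their choroid plexus sums were 1241 and 1284, while DM replicates 2 and 4 had 30016 and 30898 there. With a term for choroid plexus markers the amygdala differences of DM were -0.11 from WT, -0.34 from 5c-KO and -0.29 from 2a-HET, none of them called. In the hippocampus they were -0.65 from WT (DESeq2 adjusted p = 0.00165), -0.72 from 5c-KO, given as a description, and -0.57 from 2a-HET (DESeq2 adjusted p = 0.0414). The term was added after seeing the data, and *Ndn* had been selected on these hippocampal DM libraries. The p-values with this term are therefore not an independent test of *Ndn*. The part of hypothalamic tissue in the *Ndn* values was not tested.

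**Figure D3:**
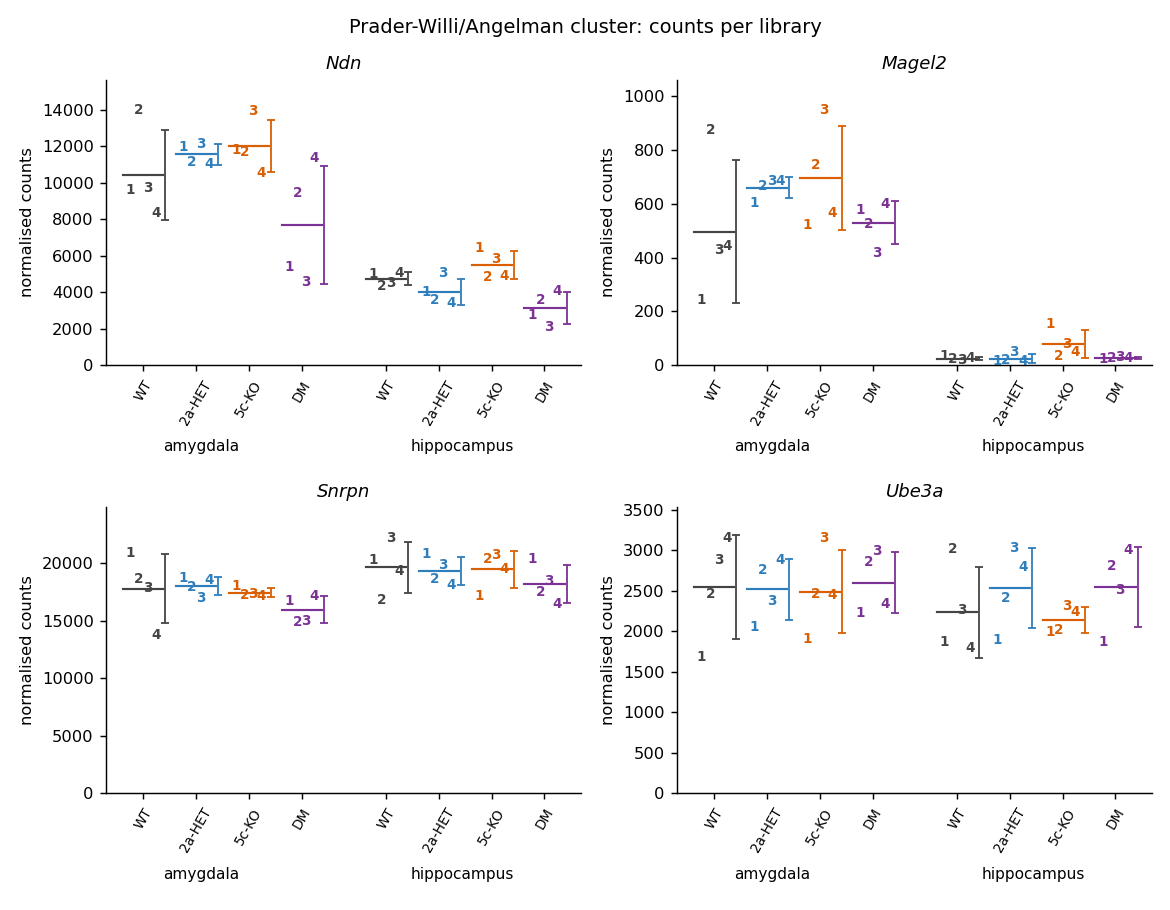
Normalised counts (vertical axes, linear, from 0) of *Ndn*, *Magel2*, *Snrpn* and *Ube3a* in each library by region and genotype. Digits are replicate numbers, horizontal lines means and bars SD (n = 4). Hippocampal *Ndn* of DM, 2109 to 4084, lies below WT at 4350 to 5062, while *Snrpn* and *Ube3a* overlap among genotypes.

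The other 5 members of the Prader-Willi/Angelman cluster were not called between DM and WT, and whether *Ndn* differed from them in its change was not tested. *Snrpn* was at 18195 ± 1667 in DM hippocampus and 19621 ± 2251 in WT, and at 15936 ± 1177 and 17756 ± 3005 in the amygdala (SD, n = 4). Its DM mean was the lower in both regions, and without WT replicate 4 it was called lower in DM amygdala (DESeq2). *Ube3a*, a ubiquitin ligase read from the maternal copy in neurons, was at 2541 ± 495 in DM hippocampus and 2233 ± 560 in WT. *Mkrn3*, a ubiquitin ligase that restrains the onset of puberty, was scarce, at 12.4 ± 4.65 in DM hippocampus and 14.8 ± 8.3 in WT. *Magel2* was at 26.6 ± 2.85 in DM hippocampus and 25.1 ± 6.08 in WT. *Snurf* was detected above the floor in few libraries. With all libraries none of these 5 members was called in either region by DESeq2 or edgeR, and none had a DESeq2 unadjusted p under 0.05 there.

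The second set of comparisons asked which members changed in each single mutant. In 2a-HET no member was called against WT, of 41 tested in each region (DESeq2, with 0.00329% of all genes called in amygdala and 0% in hippocampal libraries). At an unadjusted p under 0.05 there was 1 member in the amygdala (3.05% of all genes) and none in the hippocampus (2.4%), and edgeR called none. The amygdala member was *Snurf*, whose counts were near the floor. *Zim1* had the smallest p in the hippocampus, with 97.0 ± 28.7 in 2a-HET and 70.3 ± 7.61 in WT (SD, n = 4, log2 fold change 0.47, DESeq2 adjusted p = 0.996). The members' median change was 0.06 for amygdala and -0.0035 for hippocampus, against -0.01 and 0.01 for all genes.

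In 5c-KO, 3 of 39 tested members were called higher than WT in the hippocampus (DESeq2), where 1.01% of all genes were called, 0.829% higher and 0.181% lower. They were *Magel2*, *Rian* and *Peg10*. At an unadjusted p under 0.05 there were 7 members higher and 1 lower, beside 5.55% of all genes. *Magel2* counts were 153, 33.7, 78.6 and 48.7 in 5c-KO and 32.7, 21.9, 18.9 and 27.1 in WT, a 3.11-fold difference (log2 fold change 1.64, SE 0.45, DESeq2 adjusted p = 0.0423). The groups did not overlap, but the lowest 5c-KO library and the highest WT library lay close together. *Peg10*, at chromosome 6, 4747306 to 4760517, had 644, 226, 560 and 235 in 5c-KO and 123, 240, 132 and 289 in WT (2.12-fold, log2 fold change 1.08, SE 0.32, DESeq2 adjusted p = 0.0908). Replicates 1 and 3 of 5c-KO were high and replicates 2 and 4 lay within the WT range.

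*Rian*, a maternally expressed noncoding RNA of the Dlk1-Dio3 cluster that hosts small nucleolar RNAs, lies on chromosome 12 at 109603940 to 109661716. Its hippocampal counts were 9689, 7244, 9800 and 9806 in 5c-KO and 6648, 7269, 6956 and 7132 in WT (1.30-fold, log2 fold change 0.38, SE 0.11, DESeq2 adjusted p = 0.0769). All 5c-KO libraries but replicate 2 lay above WT. In the amygdala *Rian* was at 10656 ± 896 in 5c-KO and 8598 ± 629 in WT (SD, n = 4). The groups did not overlap, but the lowest 5c-KO library and the highest WT library differed by less than 1 count at 9460, and the log2 difference of 0.31 missed the threshold (SE 0.092, DESeq2 adjusted p = 0.101). Its neighbour *Meg3* was at 72443 ± 11436 in 5c-KO hippocampus and 65815 ± 10387 in WT, which overlapped.

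**Figure D4:**
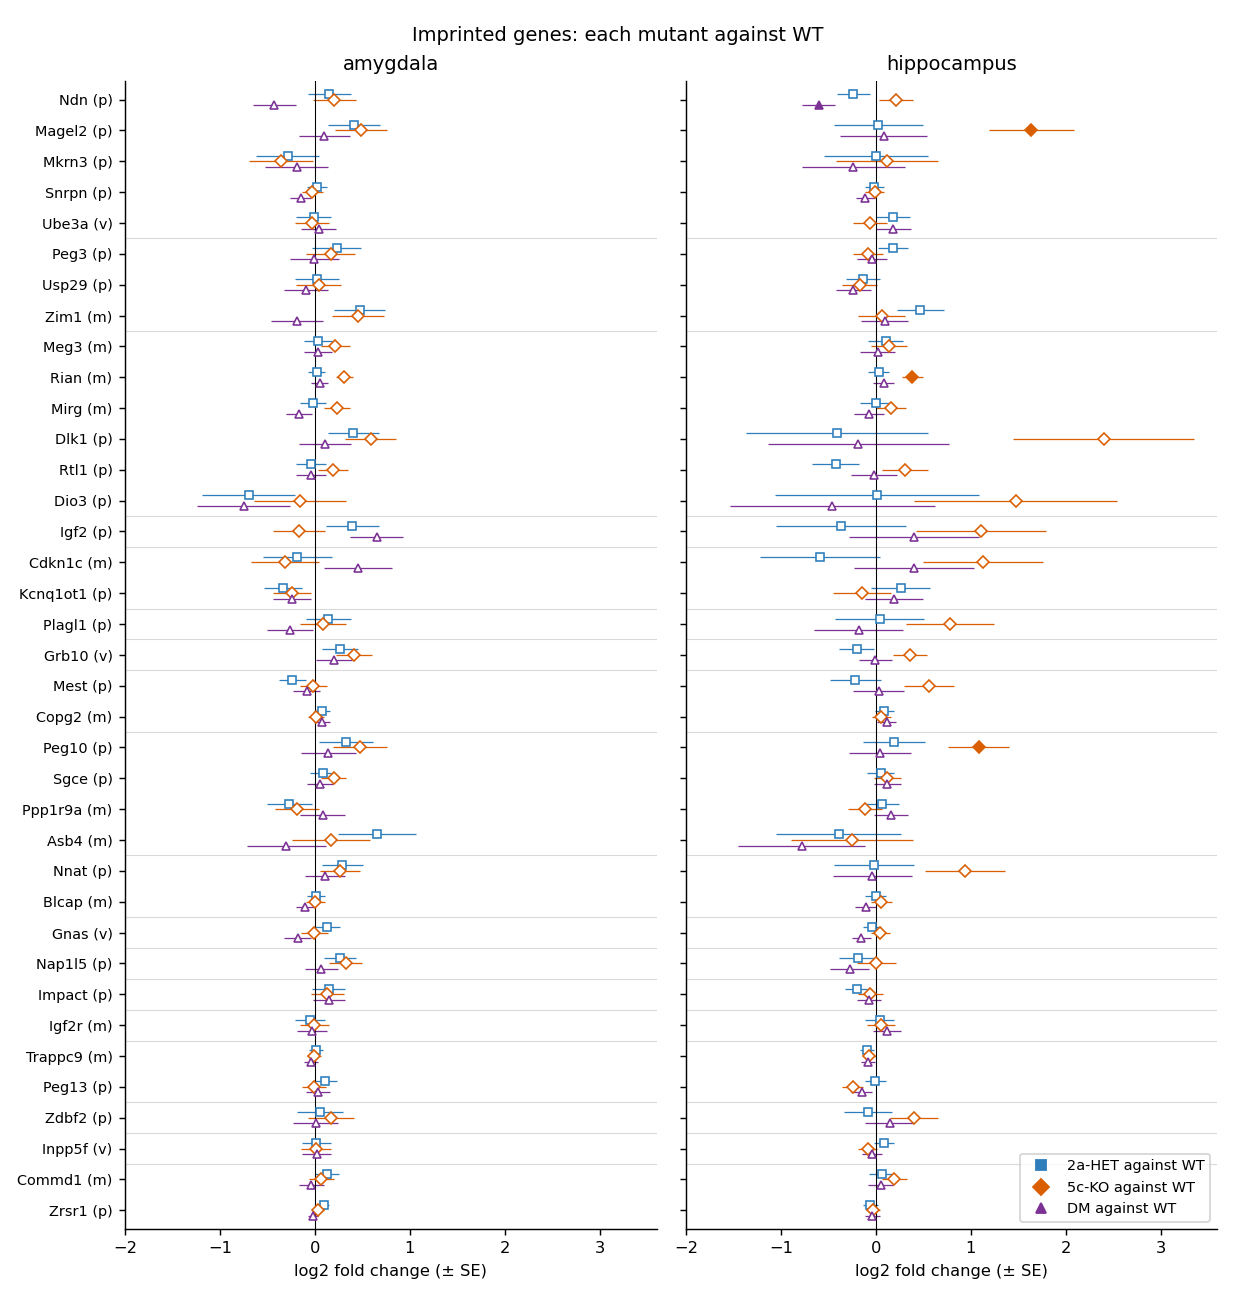
Log2 fold change of each mutant against WT (horizontal axes, point and SE, n = 4 libraries per group) for the same 37 members, with a panel per region and a colour per mutant. Filled points are called at an adjusted p under 0.1. In the hippocampus 3 members are filled for 5c-KO (*Magel2*, *Rian* and *Peg10*) and 1 for DM (*Ndn*), and none is filled in the amygdala.

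These 3 calls held under some settings and were lost under others. All 3 remained with TMM factors, with the low-count filter and without 5c-KO replicate 2, and *Magel2* and *Rian* remained with the replicate number as a block, with a term for replicate 1 and in a fit of only the 2 groups. By edgeR no member was called in this comparison, with adjusted p-values of 0.198 for *Magel2*, 0.363 for *Rian* and 0.290 for *Peg10*, and 11 members had an edgeR unadjusted p under 0.05, beside 6.33% of all genes. Without 5c-KO replicate 1 no member was called and *Magel2* was at 1.10 (DESeq2 adjusted p = 0.487). The same loss occurred without 5c-KO replicate 3, WT replicate 2 or WT replicate 3, and *Magel2* alone remained without WT replicate 1, *Peg10* alone without WT replicate 4 and both without 5c-KO replicate 4. The 5c-KO libraries that were high in *Magel2* and *Peg10* were also high in tissue markers in part. Replicate 1 carried the highest choroid plexus, striatal and leptomeningeal sums and a hypothalamic sum of 687, whereas replicate 3 had 78.6 *Magel2* counts with a hypothalamic sum of 75.5 and a choroid plexus sum of 14216. Replicate 4, whose hypothalamic sum was nearly all *Pomc*, had 48.7 with a choroid plexus sum of 27439, and replicate 2, lowest in *Magel2*, had a choroid plexus sum of 1559. With a term for choroid plexus markers *Magel2* was at 1.29 (DESeq2 adjusted p = 0.364), and without 5c-KO replicates 1 and 4 it was at 1.16 (DESeq2 adjusted p = 0.431).

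*Dlk1* and *Nnat*, chosen here after their values were seen, followed the same libraries. *Dlk1* had 738, 119, 655 and 158 in 5c-KO hippocampus against 25.7 to 163 in WT (log2 fold change 2.40, DESeq2 adjusted p = 0.368). *Nnat* was at 7428 ± 3080 against 3871 ± 580 (SD, n = 4) and did not overlap between groups. In all, 3 members of 39 did not overlap in the higher direction, *Magel2*, *Nnat* and *Commd1*, beside 2.42% of all genes. The members' median change in 5c-KO was 0.12 for hippocampus and 0.08 for amygdala, against -0.0017 and -0.01 for all genes.

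**Figure D5:**
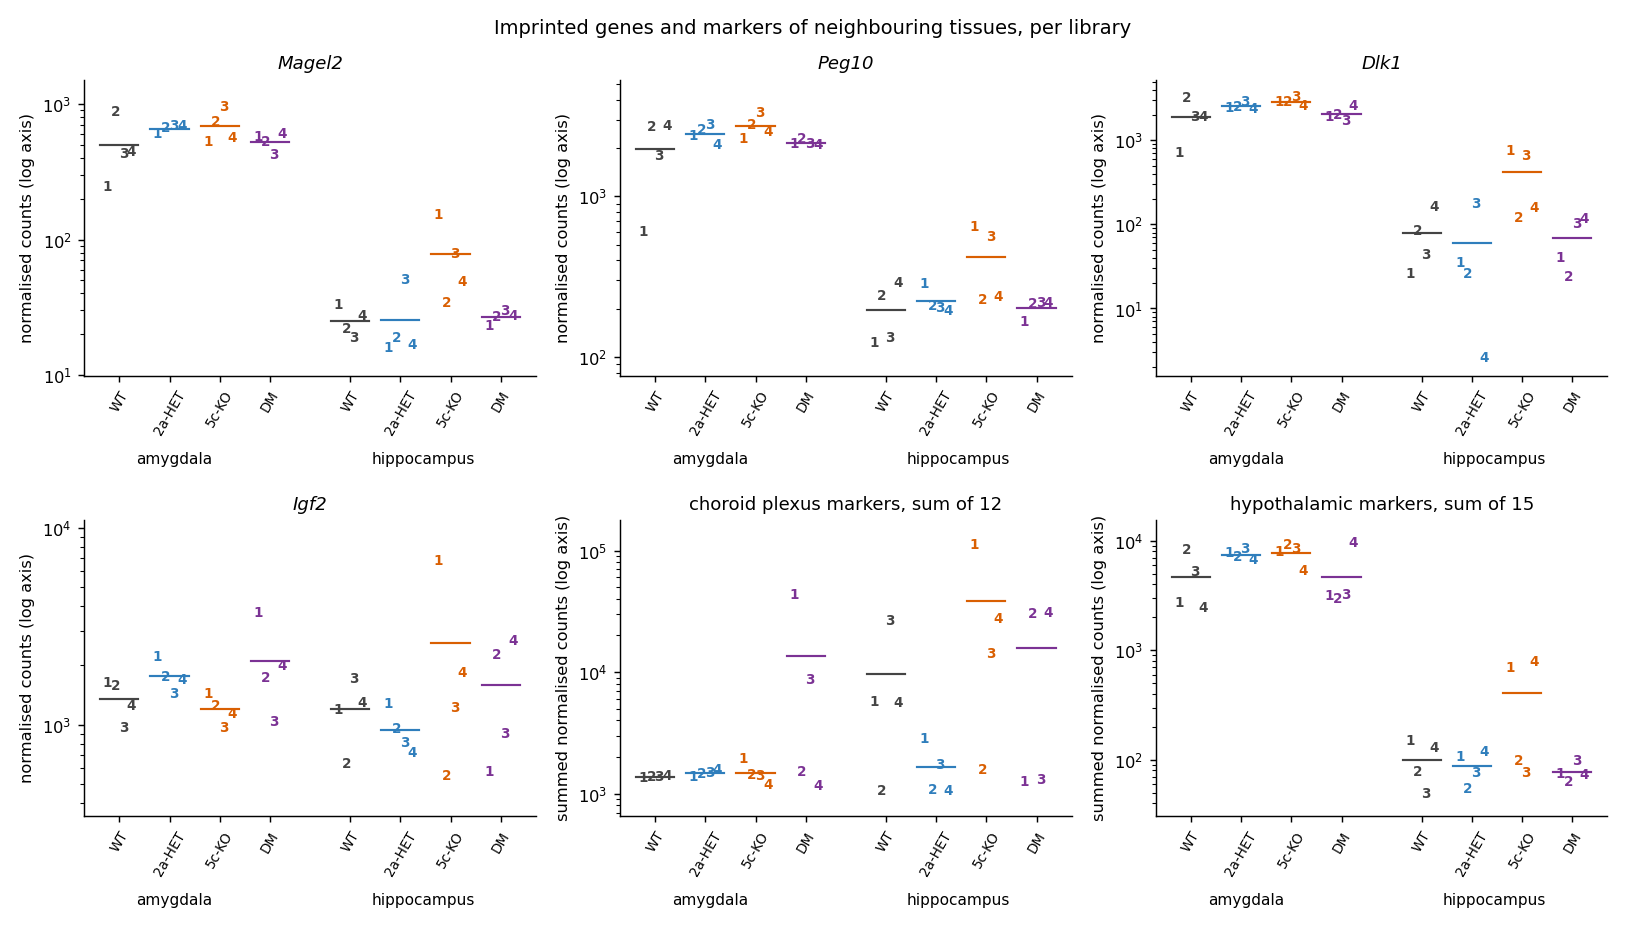
Normalised counts (vertical axes, log scale) of *Magel2*, *Peg10*, *Dlk1* and *Igf2* and summed normalised counts of 12 choroid plexus and 15 hypothalamic neuron markers in each library, by region and genotype. Digits are replicate numbers and lines group means. In the hippocampus 5c-KO replicate 1 is highest in *Magel2*, *Peg10*, *Dlk1*, *Igf2* and the choroid plexus sum, and replicates 1 and 4 are highest in the hypothalamic sum, of which *Pomc* makes up 750.5 in replicate 4.

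In the amygdala no member was called between 5c-KO and WT, of 39 tested (DESeq2 and edgeR). DESeq2 called 0.756% of all genes, 0.724% higher and 0.0315% lower. Of the members 3, *Rian*, *Dlk1* and *Grb10*, had an unadjusted p under 0.05, each higher, beside 3.84% of all genes. *Rian* was the 1 member without overlap, beside 1.78% of all genes in the higher direction. In *Peg3* and *Dlk1* WT replicate 1 was the lowest WT library and WT replicate 2 the highest. *Peg3* was at 6049, 19202, 14070 and 16962 in WT amygdala and *Dlk1* at 713, 3148, 1888 and 1913. Without WT replicate 2, 5 members were called higher in 5c-KO, *Dlk1*, *Grb10*, *Magel2*, *Nap1l5* and *Rian*, beside 1.08% of all genes called higher in that fit (DESeq2). The change in 5c-KO differed between regions for no member (DESeq2 and edgeR, 0.00624% of all genes called by DESeq2), and by DESeq2 *Magel2* was the only member with an unadjusted p under 0.05 for that difference, while edgeR gave 4 such members, beside 3.2% of all genes (*Magel2* hippocampal minus amygdala change 1.15, SE 0.51, DESeq2 adjusted p = 1). For 2a-HET and DM no member was called for a difference between regions by either tool or had an unadjusted p under 0.05 (DESeq2, 0% and 0.00936% of all genes called). These fits ignore that both regions came from the same mice. With the mouse as a block again no member was called for any of these changes (DESeq2). At an unadjusted p under 0.05 there were then 5 members for 2a-HET, 1 for 5c-KO and 0 for DM. The share of all genes for these counts is not given here.

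The third set of comparisons asked how DM differed from WT and from each single mutant. In the amygdala no member was called against WT, of 40 tested (DESeq2 and edgeR). DESeq2 called 0.99% of all genes, 0.92% higher and 0.0704% lower. At an unadjusted p under 0.05 there was 1 member, *Igf2*, beside 4.86% of all genes. *Igf2*, the growth factor gene that choroid plexus and leptomeninges express strongly, was at 3704, 1719, 1026 and 1974 in DM and 1348 ± 303 in WT (SD, n = 4, log2 fold change 0.65, SE 0.28, DESeq2 adjusted p = 0.547). Its highest library, DM replicate 1, was the library with a choroid plexus sum of 43377. The lowest, DM replicate 3, had the next highest sum (8533), and replicates 2 and 4 had sums of 1515 and 1153. Likewise in 5c-KO hippocampus *Igf2* was at 6804, 548, 1215 and 1838, highest in the library of highest choroid plexus sum. With the choroid plexus term the DM change of *Igf2* from WT in the amygdala was 0.29 (DESeq2 adjusted p = 0.9996), and no member had an unadjusted p under 0.05 there.

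Against 5c-KO, no member was called in the amygdala (41 tested, DESeq2 and edgeR, 0.00329% of all genes called by DESeq2), and 6 members had an unadjusted p under 0.05, beside 2.29% of all genes. The smallest p was that of *Igf2* (log2 difference 0.82, DESeq2 adjusted p = 1). *Mirg*, a noncoding RNA that hosts microRNAs, and *Peg10* were lower in DM without overlap, beside 0.827% of all genes. With the choroid plexus term 1 member had an unadjusted p under 0.05 in this comparison (DESeq2). The median log2 difference was 2.67 for choroid plexus markers and -0.80 for hypothalamic markers, with none called. Their part in the members' values was not tested. In the hippocampus, *Ndn* aside because it was selected there, none of 40 tested members was called, and 9 had an unadjusted p under 0.05, all lower in DM, beside 4.53% of all genes in either direction (DESeq2). *Magel2* (-1.56), *Peg10* (-1.04), *Dlk1* (-2.58) and *Rian* (-0.30) had the smallest p-values, in that order, and these differences from 5c-KO rest on the 5c-KO libraries described above.

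Against 2a-HET, no member was called in either region (40 and 39 tested, DESeq2 and edgeR). DESeq2 called 0.703% of all genes higher and 0.102% lower in the amygdala (0.805% in all) and 0.528% higher and 0.0777% lower in the hippocampus. At an unadjusted p under 0.05 there were 6 members in the amygdala (4.48% of all genes) and 1 in the hippocampus (3.49%). *Snurf* had the smallest p in the amygdala (DESeq2 adjusted p = 0.219), with 14.2, 2.65, 7.69 and 0 normalised counts in DM and 0 in each 2a-HET library. *Zim1* was at 233, 348, 304 and 375 in DM and 412, 529, 580 and 476 in 2a-HET, without overlap. *Magel2*, *Plagl1*, *Asb4* and *Zrsr1* were the other members without overlap, all lower in DM, beside 2.99% of all genes. For *Magel2* the highest DM library (599.7) and the lowest 2a-HET library (602.9) lay close together. In the same comparison the hypothalamic sum was 6609 to 8387 in 2a-HET and 2957 to 3209 in DM except for 9577 in replicate 4 (median log2 difference of the 15 markers -1.20, none called), and 7 of 12 choroid plexus markers were called higher in DM (DESeq2). Their part in these values was not tested.

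The interaction asked whether the change in DM departed from the sum of both single-mutant changes. No member was called, of 41 tested in each region (DESeq2 and edgeR, 0.00329% of all amygdala genes and 0% of all hippocampal genes called by DESeq2). At an unadjusted p under 0.05 there were 6 members in the amygdala (2.82% of all genes) and 4 in the hippocampus (1.91%), all with negative terms. *Zim1* had the smallest p in the amygdala (log2 term -1.11, SE 0.39, DESeq2 adjusted p = 1) and *Peg10* in the hippocampus (-1.23, SE 0.46, DESeq2 adjusted p = 1). The terms for *Ndn* were -0.79 and -0.58 (amygdala first, DESeq2 adjusted p = 1 for both). The members' median term was -0.19 for amygdala and -0.16 for hippocampus, against 0.01 and -0.01 for all genes. The median term of hypothalamic markers was -1.49 and -1.15 and that of choroid plexus markers 2.69 and 1.24 (amygdala first). None of these markers was called (DESeq2), and their part in the members' terms was not tested.

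Members of a cluster were also compared in how they deviated from their genotype means from library to library. This was done for 10 relations, 5 pairs in each region, each over 16 libraries, with two-sided permutation tests adjusted over the 10 and a threshold of 0.05. *Ndn* and *Magel2* deviated together in the hippocampus (Pearson r = 0.547, permutation p = 0.0106, adjusted p = 0.0234). Their Spearman rho was 0.606 (permutation p = 0.0259, adjusted p = 0.0432). In the amygdala r was 0.494 (permutation p = 0.0481, adjusted p = 0.0687) and rho 0.532 (permutation p = 0.0604, adjusted p = 0.0864). Without the 2 libraries farthest from the median of *Ndn*, r was 0.762 and 0.709. *Nnat* and *Blcap*, which overlap on opposite strands, had r = 0.734 in the amygdala (permutation p = 0.0117, adjusted p = 0.0234) with rho = 0.738 (permutation p = 0.0117, adjusted p = 0.0391). In the hippocampus they had r = 0.825 (permutation p = 0.00292, adjusted p = 0.0146) with rho = 0.756 (permutation p = 0.00727, adjusted p = 0.0363), and r was 0.771 and 0.559 without 2 libraries, which no longer passed after adjustment. Reads of either gene could be counted for the other.

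*Peg3* and *Usp29*, which share a start region, had r = 0.917 in the amygdala (permutation p = 0.00159, adjusted p = 0.0146) with rho = 0.815 (permutation p = 0.00113, adjusted p = 0.0113). Without the 2 libraries farthest from the median it was 0.637, and the adjusted p of 0.0976 then missed 0.05, so the relation rests in part on those libraries. In the hippocampus r was 0.222 (permutation p = 0.498, adjusted p = 0.553) and rho 0.176 (permutation p = 0.589, adjusted p = 0.589), and r was 0.0212 without 2 libraries. *Meg3* and *Rian*, successive noncoding RNAs of 1 strand, had r = 0.745 in the amygdala (permutation p = 0.00992, adjusted p = 0.0234) with rho = 0.674 (permutation p = 0.0202, adjusted p = 0.0432). In the hippocampus r was 0.244 (permutation p = 0.441, adjusted p = 0.551) and rho 0.329 (permutation p = 0.282, adjusted p = 0.353). Without 2 libraries r was 0.671 and 0.482, and neither then passed after adjustment. *Dlk1* and *Meg3*, read from opposite parental copies, had r = 0.562 in the amygdala (permutation p = 0.0348, adjusted p = 0.0580) with rho = 0.644 (permutation p = 0.0220, adjusted p = 0.0432). In the hippocampus r was 0.163 (permutation p = 0.644, adjusted p = 0.644) and rho 0.268 (permutation p = 0.370, adjusted p = 0.411), and r was 0.497 and 0.137 without 2 libraries. All libraries of a region share the scaling and the dissection, and the share of neighbouring tissue differed among them.

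A further 42 genes with reported parent-of-origin expression that are not among the members gave the same direction between regions. Of 38 tested, 14 were lower in the hippocampus in WT, 15 in 2a-HET, 11 in 5c-KO and 15 in DM, and 2, 2, 4 and 2 were higher (DESeq2, background as above). Their median differences were -0.30, -0.34, -0.21 and -0.29. Between genotypes the only one called was *Calcr*, the calcitonin receptor gene, lower in DM than in 2a-HET amygdala (log2 fold change -1.06, DESeq2 adjusted p = 0.0853). Of 30 factors known to set, keep or read imprints, such as *Zfp57*, *Trim28*, *Dnmt1* and *Ctcf*, none was called in a genotype comparison or interaction by DESeq2. Between regions 3, 11, 4 and 6 of 27 tested were higher in the hippocampus and 1, 2, 2 and 1 lower (WT, 2a-HET, 5c-KO and DM).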

How the data were processed

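Amygdala and hippocampus of 16 mice were profiled by the authors with a directional oligo-dT kit after addition of ERCC spike-in RNA. Per the labels and methods, reads were mapped to mm10 (Gencode) with STAR (2.5.3a), restricted to unique reads, freed of duplicates and counted with Subread (1.5.0). The values used here are expected counts per gene and per transcript as deposited by the authors, of which 16.8% of those above 0 are not whole. The estimator, the annotation release and the strand setting of these tables are not given in the sources used here.

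Symbols and coordinates came from GENCODE M21 on mm10, and promoter sequence from RefSeq. Rounded counts of the 16 libraries of a region were fitted with DESeq2 (1.42.0, R 4.3.3) by genotype over all genes, and all 32 libraries were fitted together for contrasts between regions. The threshold for a call was 0.1 on p-values adjusted by Benjamini-Hochberg. Normalised counts use the size factors of the 32-library fit, and SD is between mice. Tests of genotype are between animals. Both regions came from the same mice, whose paired libraries deviated together (r over 0.1 in 10 of 16 mice, median 0.124, against -0.0555 between different mice of a genotype). No replicate pair was a duplicate (chi-square per gene 3.89 to 135 over 48 pairs).

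The quasi-likelihood test of edgeR (4.0.16), TMM and ERCC scaling, a filter for 10 counts in 4 libraries, a stricter threshold, fits of only the groups compared, blocks, a term for replicate 1 and omission of single libraries were alternatives. A term for choroid plexus markers and omission of 5c-KO replicates 1 and 4 of the hippocampus were added after seeing the data. Library deviations from genotype means were correlated as log2 of normalised counts plus 1, with 100000 permutations within genotypes. The fits were tested on simulated data with known changes.

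The members and gene lists were chosen with earlier results of these data known. The text names the *Ndn* cluster, each member called between genotypes, the member of smallest p in each genotype comparison, the 6 of smallest adjusted p between regions in WT and the extremes of level. Members named beyond this rule were picked after their values were seen or describe a cluster.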

Additional observations from a re-analysis of the deposited data

Results flagged for a closer look

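For the 15 members named by the rule, each group of 4 libraries was examined for a library whose distance from its nearest neighbour exceeded Dixon's critical value relative to the range of the group. This held for 16 of 117 groups (13.7%). The usual rate of about 1 in 20 holds for continuous values. It does not hold for groups near the floor, such as those of *Snurf* and *Phlda2*, where a single count beside zeros is always flagged. No excess over chance can therefore be read from this share.

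Of these, 5 concern *Snurf*, whose counts were at or near the floor. It was at 7.42 normalised counts in WT replicate 4 of the amygdala (others 0 to 0.949), at 0 in 5c-KO replicate 2 of the amygdala (others 8.20 to 9.13), at 5.98 in WT replicate 2 of the hippocampus, at 0.964 in 2a-HET replicate 3 of the hippocampus and at 1.02 in 5c-KO replicate 3 of the hippocampus, with the other libraries of these 3 hippocampal groups at 0.

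A further 6 concern *Phlda2*, which was at 4.19 in WT replicate 3, 0.859 in 2a-HET replicate 3 and 0.949 in DM replicate 1 of the amygdala and at 1.16 in 2a-HET replicate 2, 0.975 in 5c-KO replicate 4 and 1.92 in DM replicate 2 of the hippocampus, with all other libraries of these groups at 0.

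The others were hippocampal libraries. *Magel2* was at 50.1 in 2a-HET replicate 3 (others 15.8 to 18.6). *Peg10* was at 286 in 2a-HET replicate 1 (others 195 to 209) and at 164 in DM replicate 1 (others 213 to 218). *Rian* was at 7244 in 5c-KO replicate 2 (others 9689 to 9806), the library that overlapped with WT. *Usp29* was at 661 in 5c-KO replicate 1 (others 465 to 497), the library of highest choroid plexus and striatal sums.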

How the results depend on the processing

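None of the single-member log2 fold changes that were recomputed under each alternative changed sign. Between regions these covered only *Ndn* and the 6 members of smallest adjusted p in WT. Values of other members did change sign. With ERCC scaling 4, 4, 5 and 5 of the members called lower between regions had differences above 0. Among them were *Gnas* in 2a-HET and *Rian* in WT, 2a-HET and DM. The WT members' median moved from -0.47 to 0.34. Of the counts of called members under an alternative 252 stayed within 1.5 times and 51 did not. Of the values of single members 425 kept their side of the threshold, 54 lost it and 15 gained it. The causes were not tested unless stated.

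Between regions, ERCC scaling called 5 (WT), 7 (2a-HET) and 6 (DM) members. Omission of single mice gave 15 to 20 in WT, 17 to 20 in 2a-HET and 5c-KO and 15 to 18 in DM, beside 8.56% to 11.4%, 11.3% to 13.8%, 9.08% to 12.1% and 11.6% to 12.7% of all genes called lower. All were lower except *Cdkn1c* and *Igf2*, higher without 5c-KO replicate 2 (9.23% of all genes higher), and *Snrpn*, higher without DM replicate 4 (11.8%). Each of the *Ndn*, *Magel2*, *Peg10*, *Zim1*, *Grb10*, *Asb4* and *Usp29* differences stayed called under these omissions. With ERCC scaling *Ndn* was called between regions in no genotype, and *Grb10* and *Usp29* were not called in WT. The mouse block changed no count of a region comparison by over 1.5 times.

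Replicate numbers mark different animals across genotypes, and the labels do not say whether a number marks a shared batch, which was not tested. Same-numbered libraries had a median r of 0.0714 (amygdala) and 0.00593 (hippocampus), and 8 and 6 of 16 libraries correlated best with their own number. The replicate block raised the genes called among all genes, for DM against 5c-KO in the amygdala from 1 to 371. With it, 0.603% to 2.04% of all genes were called, and the members called in the amygdala were 1 for 5c-KO against WT (*Rian*), 1 for DM against WT (*Igf2*), 2 for DM against 5c-KO (*Igf2*, *Rian*), 1 for DM against 2a-HET (*Zim1*) and 1 for the interaction (*Zim1*). In the hippocampus they were 2 for 5c-KO against WT, without *Peg10* (1.04, DESeq2 adjusted p = 0.123), 1 for DM against WT (*Ndn*) and 2 for DM against 5c-KO (*Magel2*, and *Ndn*, which was selected there).

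Of the other settings in the amygdala, TMM factors, the low-count filter, the replicate 1 term and the choroid plexus term each called 1 member for 5c-KO against WT (*Rian*, beside 0.69% to 0.894% of all genes), the replicate 1 term called 1 for DM against 5c-KO (*Igf2*, 0.366% of all genes), and a fit of only the 2 groups called 3 for DM against 2a-HET (*Asb4*, *Plagl1*, *Zim1*), where the share of all genes called rose from 0.805% to 3.27%. Omission of single libraries gave 0 to 2 members for 2a-HET against WT (2 without WT replicate 2, 0.614% of all genes), 0 to 5 for 5c-KO against WT (5 without WT replicate 2, 1.45%), 0 to 1 for DM against WT (1 without WT replicate 4, 1.46%, or DM replicate 3, 0.772%), 0 to 2 for DM against 5c-KO and for DM against 2a-HET (2 without DM replicate 4, 0.159% and 1.01%) and 0 to 4 for the interaction (4 without WT replicate 2, 0.421%).

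In the hippocampus the 3 calls of 5c-KO against WT became 0 with edgeR, ERCC scaling, the choroid plexus term and without 5c-KO replicates 1 and 4, and 1 at an adjusted p under 0.05. *Peg10* alone was lost with a replicate 1 term (adjusted p = 0.120 by DESeq2) and in a fit of the 2 groups (0.193), which gained *Nnat*. The *Ndn* call of DM against WT became 0 with edgeR, ERCC scaling and the stricter threshold. For DM against 5c-KO, where *Ndn* was selected, the count is a description. It was 0 with these and without 5c-KO replicates 1 and 4. The choroid plexus term called 1 member for DM against 2a-HET (*Ndn*, -0.57, DESeq2 adjusted p = 0.0414), beside 0.531% of all genes. That term was added after seeing the data and *Ndn* was selected on the same DM libraries, so this call is not an independent test. Omission of single libraries gave 0 to 3, 0 to 1 and 0 to 4 members for 5c-KO against WT, DM against WT and DM against 5c-KO, beside 0.553% to 1.55%, 0.527% to 1.59% and 0.00337% to 0.717% of all genes. For the last it was 0 without 5c-KO replicate 1 or 3 or DM replicate 3 and 4 without 5c-KO replicate 2.

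ERCC scaling raised r to 0.876 (*Ndn* and *Magel2*) and 0.901 (*Dlk1* and *Meg3*) in the amygdala. In the hippocampus it raised r to 0.930 (*Peg3* and *Usp29*) and 0.939 (*Meg3* and *Rian*). The spike-in size factors ranged from 0.339 (WT replicate 4, hippocampus) to 2.95 (WT replicate 4, amygdala). Both genes of a pair are divided by the same factor in each library, which gives them a shared deviation. These higher values therefore do not test the relation of the pairs. Without 2 libraries r was 0.637 (*Peg3* and *Usp29*), 0.671 (*Meg3* and *Rian*) and 0.771 (*Nnat* and *Blcap*) in the amygdala and 0.559 (*Nnat* and *Blcap*) in the hippocampus, and these no longer passed. Members near the floor, *Snurf*, *H19* and *Phlda2*, and hippocampal *Asb4* and *Mkrn3* rest on few counts.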
